A study of Glycine max with 24 samples.

Results

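Roots of untreated soybean plants (Glycine max) that overexpress GmNFYA were compared with untreated roots of Jack, the wild type of the series. The comparison rests on 6 of the 24 RNA-seq libraries of the series, 3 per genotype, assigned by tissue, genotype and treatment in the labels. Jack is a soybean cultivar that is often used for transformation. The GmNFYA plants are labelled as transgenic, and the titles of all their libraries carry the code N3. What N3 stands for is not given in the labels. Neither group had been given NaCl, and both carry the time 0 h in their titles. The remaining libraries come from roots with 150 mM NaCl for 6 h and from leaves, again with 3 libraries for each genotype and treatment. They serve here only as a second look at the same genes. All libraries with NaCl are at 6 h and all without it at 0 h. NaCl and elapsed time therefore cannot be told apart wherever the treatments are compared. The promoter of the transgene, the number of independent lines, the age of the plants and whether a library holds 1 plant or a pool are not given in the labels. A line that stands for 1 transformation event cannot be told apart from the effect of the transgene. Replicate numbers are given without a statement that they mark separate plants, so p-values measure the spread between these libraries, which may be technical.

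The NF-Y complex binds promoters that hold the sequence CCAAT, and NF-YA is the member of the complex that makes this contact. It joins a dimer of NF-YB and NF-YC, which have histone folds, and the trimer can raise or lower transcription of the gene it binds. Plants have families of NF-YA genes, many of which are targets of the microRNA miR169, and members of these families have been studied in drought, nutrient supply and nodule formation in legume roots. In roots, the uptake of water and ions, the barrier tissues and the defence compounds of legumes depend on many genes that leaves use little, so a comparison of roots can show differences that leaves do not.

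Gene-level read counts in the 6 libraries summed to between 17005570 and 21999307 per library. Reads with several alignments, which count for no gene, amounted to 5.53 ± 0.345% of reads in GmNFYA and 9.63 ± 0.58% in Jack (mean ± SD, n = 3 each), and the groups did not overlap. Assigned reads made up 75.5 ± 0.513% in GmNFYA and 71.4 ± 0.777% in Jack. The part of this gap in the results below was not tested. The median spread within the groups was alike, with a median SD of log2 CPM of 0.107 in GmNFYA and 0.106 in Jack over the 17979 IDs above 10 CPM. An SD above 0.5 was more frequent in GmNFYA, for 1.03% of these IDs against 0.651% in Jack. CPM are counts per 1e6 reads of a library size that was multiplied by a scaling factor (TMM). This factor averaged 1.08 in GmNFYA and 1.02 in Jack, so summed CPM are not shares of gene counts. None of the 57105 gene IDs in the root table could be paired with a name in the reference table used here, so no ID is given a name or role, and root markers could not be looked up by name. As a substitute, 116 IDs that were at least 100-fold higher in leaf than in root in the NaCl libraries of both genotypes were summed. They held 0.0208 to 0.0258% of gene counts in Jack roots and 0.0211 to 0.0231% in GmNFYA roots, with the ranges of the genotypes overlapping.

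Of the IDs called at least 2-fold higher in GmNFYA roots without overlap, Glyma.02G303800 gained the most CPM. It was at 0.924, 1.6 and 1.55 CPM in the 3 Jack libraries and at 394, 338 and 364 CPM in the 3 GmNFYA libraries. The groups were far apart, and in GmNFYA the ID ranked 168th of 36390 tested IDs by mean level, against 30888th in Jack. The difference was 266-fold (log2 8.06 ± 0.238 SE, adjusted p = 7.04e-11, edgeR quasi-likelihood test). The closest tested IDs on either side of it in number order did not show it. Glyma.02G303700 had a mean of 35.5 CPM in GmNFYA and of 33.1 CPM in Jack (log2 0.10 ± 0.0885, adjusted p = 0.442), and Glyma.02G303900 was at 0.27 and 0.0718 CPM (log2 1.88 ± 0.981, adjusted p = 0.182). Both are named for their position only. Without the name, it was not tested whether 02G303800 is the GmNFYA transcript.

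The genotype difference reached 8490 of the 36390 tested IDs (23.3%) at an adjusted p under 0.05 in edgeR's quasi-likelihood test, with all 12 root libraries in the fit. Of these, 3910 were higher in GmNFYA (10.7% of tested IDs) and 4580 lower (12.6%). Most differences were small: the median size among called IDs was 0.636 on the log2 scale, and the median of all tested IDs was 0.0132. In 8236 of the called IDs, 97% of them, the 3 libraries of one genotype lay entirely above the 3 of the other. The same held for 40.6% of all tested IDs. With 1 library left out, the count ranged from 5648 without GmNFYA replicate 2 to 8622 without GmNFYA replicate 3. Leaving out a library also makes its group smaller, so a lower count does not single out that library. The number of higher IDs was 2531, 2456, 2414 or 2556 without GmNFYA replicate 1, GmNFYA replicate 2, Jack replicate 1 or Jack replicate 2. With upper-quartile scaling the balance turned, with 4315 higher and 4248 lower.

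Larger differences were more often falls. At least 2-fold differences were called for 1015 higher IDs (2.79% of tested IDs) and 1314 lower IDs (3.61%). At least 4-fold differences numbered 239 higher and 486 lower, together 1.99% of tested IDs. At least 8-fold differences numbered 83 and 232, and at least 32-fold differences 21 and 57. The excess of lower IDs thus grew with the size of the difference up to 8-fold. Together the IDs called lower held 27.8% of the counts in Jack and 18.5% in GmNFYA, and those called higher held 9.14% in Jack and 14.3% in GmNFYA. These shares describe IDs that were chosen by the same values.

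**Figure D1:**
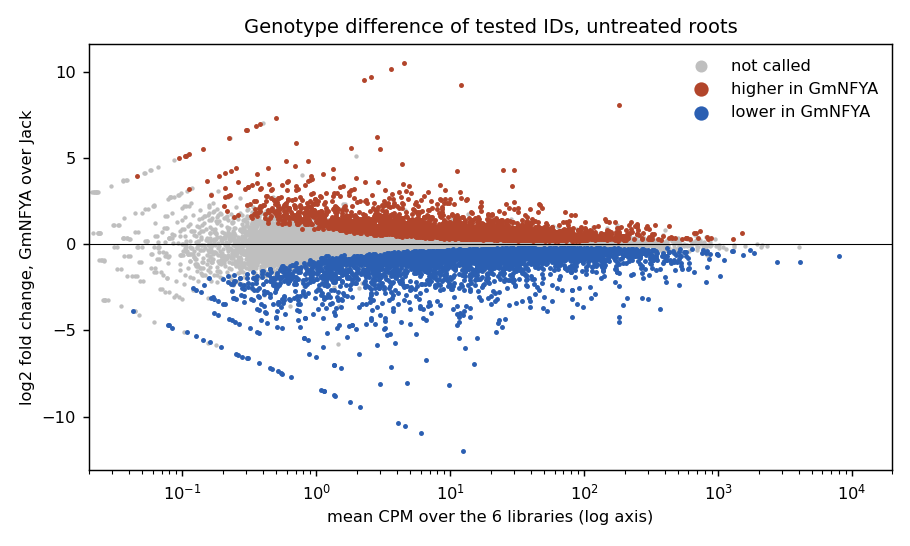
Log2 fold change of GmNFYA over Jack in untreated roots (vertical axis) against mean CPM over the 6 libraries (horizontal log axis), 1 point per tested ID, coloured where the adjusted p was under 0.05. Higher and lower IDs balance at low levels, and lower IDs prevail at the right. The ID 02G303800 is at log2 8.06, and 13G042200 and 02G226700, at lower CPM, lie above it at 10.50 and 10.19.

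The lower calls gathered among abundant transcripts. Of the 264 IDs above 300 CPM on average over the 6 libraries, 89 were lower in GmNFYA (33.7%) and 31 higher (11.7%), against 12.6 and 10.7% of all tested IDs. Among the same 264 IDs, 27 were at least 2-fold lower and 2 at least 2-fold higher. From 100 to 300 CPM, 357 of 1350 IDs were lower and 153 higher. In the class from 3 to 10 CPM the balance was the other way, with 853 lower and 1026 higher of 9111. Over all 1614 IDs above 100 CPM, 446 were lower and 184 higher. Without Jack replicate 2 the higher ones numbered 122, and lower IDs outnumbered higher ones in this class under each scaling tried. The precision of a single ID also depends on its level, with a median SE of 0.495 on the log2 scale up to 1 CPM and of 0.0906 from 30 to 100 CPM, so that small differences can be called only in abundant IDs.

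**Figure D2:**
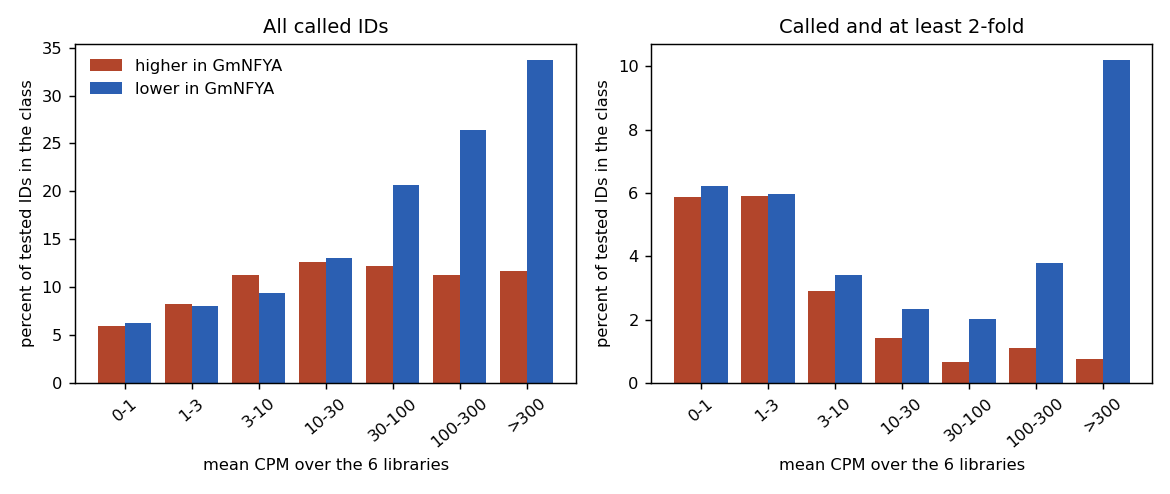
Percent of tested IDs called higher (red) or lower (blue) in GmNFYA in 7 classes of mean CPM, for all calls (left) and for calls of at least 2-fold (right). Above 300 CPM, 33.7% of IDs were lower and 11.7% higher, and at least 2-fold differences were lower in 10.2% and higher in 0.758%.

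The most abundant transcripts were largely the same IDs in both genotypes. Of the 20 IDs with the highest mean CPM in each genotype, 17 were shared. Of the 23 IDs in either list, 11 were lower in GmNFYA, 2 were higher and 10 were not called. For all 264 IDs above 300 CPM the shares were 33.7% lower and 11.7% higher, and a difference of the 23 from these was not tested. The falls with the largest loss in CPM, among called IDs of at least 2-fold whose groups did not overlap, were in Glyma.13G347700 and Glyma.07G007000. Glyma.13G347700 was at 5668, 5987 and 4653 CPM in Jack and at 2678, 2872 and 2566 CPM in GmNFYA. It was the second most abundant ID of Jack roots and was lower in every GmNFYA library than in any Jack library (2.01-fold, log2 -1.01 ± 0.136, adjusted p = 8.2e-05 in edgeR). Glyma.07G007000 was at 3957, 3511 and 3514 CPM in Jack and at 1960, 1781 and 1698 CPM in GmNFYA (2.02-fold lower, log2 -1.01 ± 0.118, adjusted p = 1.82e-05). Its groups did not overlap either, and it ranked 4th in Jack and 9th in GmNFYA.

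With NaCl both IDs were again lower in GmNFYA roots. Glyma.13G347700 averaged 7604 ± 927 CPM in Jack against 4917 ± 632 CPM in GmNFYA (log2 -0.63 ± 0.135, adjusted p = 0.00562). Glyma.07G007000 was at 3592 ± 84 and 2603 ± 375 CPM there (log2 -0.46 ± 0.117, adjusted p = 0.0133). Tests of whether these differences changed with NaCl did not pass (interaction adjusted p = 0.254 and 0.0508). In untreated leaves the groups overlapped for both. Glyma.13G347700 lay between 1252 and 2868 CPM in Jack leaves and between 2274 and 2919 CPM in GmNFYA leaves (adjusted p = 0.828), and Glyma.07G007000 between 99 and 323 CPM and between 252 and 373 CPM (adjusted p = 0.765).

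The rises with the largest gain in CPM were in 02G303800 and Glyma.15G115000. Glyma.15G115000 was at 264, 224 and 341 CPM in Jack and at 545, 629 and 579 CPM in GmNFYA, with no overlap (2.11-fold, log2 1.08 ± 0.171, adjusted p = 0.000582 in edgeR). In roots with NaCl its mean was 62.6 ± 15.3 CPM for Jack and 104 ± 9.5 CPM for GmNFYA, again higher in GmNFYA (log2 0.74 ± 0.174, adjusted p = 0.0118). In untreated leaves it lay between 15.2 and 24.9 CPM in Jack and between 22.8 and 25.1 CPM in GmNFYA (adjusted p = 0.412), where the groups overlapped.

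**Figure D3:**
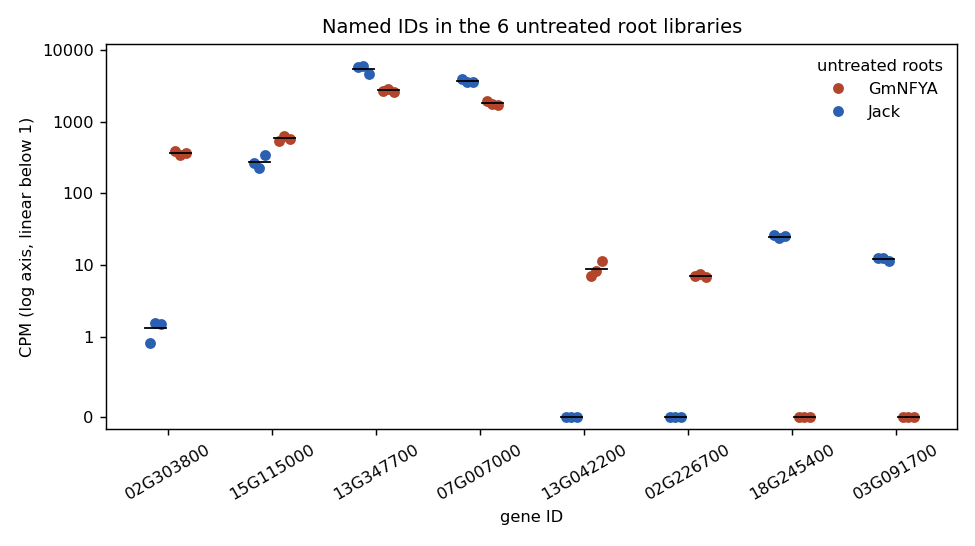
CPM of 8 named IDs in each of the 6 untreated root libraries (points, log axis that turns linear below 1 CPM), with a black line at each group mean. The first 4 IDs are the 2 largest gains and the 2 largest losses in CPM, and the other 4 were at 0 counts in all 3 libraries of one genotype.

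Transcripts that are abundant in root and scarce in leaf were more often lower than higher in GmNFYA. Root-abundant IDs were taken as those at least 8-fold higher in root than in leaf in the NaCl libraries of both genotypes, so that none of the 6 untreated root libraries chose them. There were 2988 such IDs, a list that was made after the overall values had been seen and so carries no test. Of these, 856 were lower in GmNFYA (28.6%, against 12.6% of all tested IDs) and 414 higher (13.9%, against 10.7%), with a list median of -0.113 on the log2 scale. At least 2-fold differences were 489 lower and 161 higher. Without Jack replicate 1 the higher ones numbered 265, beside 736 lower ones.

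The summed share of these IDs differed between the genotypes. Root-abundant IDs held 14.4, 14.4 and 14% of gene counts in the Jack libraries and 12.1, 11.2 and 11.9% in the GmNFYA libraries. Every GmNFYA library lay below every Jack library. Without the 10 most abundant members, the summed level of the rest was 114992 CPM in Jack and 91553 CPM in GmNFYA. These sums are in scaled CPM, so their ratio cannot be set beside that of the shares. With a stricter limit of 100-fold, 808 IDs held 6.71, 6.87 and 6.44% in Jack and 5.67, 5.12 and 5.48% in GmNFYA, and 271 of them were lower and 130 higher. In a bulk sample, fewer cells of a type and less RNA per cell cannot be told apart. In roots with NaCl, the libraries in which the list was chosen, the 2988 IDs held 16.5 to 17.1% in Jack and 15.6 to 16.3% in GmNFYA.

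Root-abundant IDs were frequent among the strong falls. They made up 200 of the 486 IDs at least 4-fold lower in GmNFYA (41.2%), 24 of the 239 at least 4-fold higher (10%), and 8.21% of all tested IDs. The shares also differed between IDs of like level. Above 100 CPM, 41.2% of 255 root-abundant IDs were lower in GmNFYA, against 25.1% of 1356 IDs that were abundant in neither tissue. From 10 to 100 CPM, 34.5% of 1156 root-abundant IDs were lower and 17.2% higher, against 14.3% lower and 12% higher of 15069 IDs abundant in neither tissue. A high share of lower IDs at this level was not particular to root-abundant IDs: of 140 leaf-abundant IDs, chosen the same way at 8-fold, 35% were lower and 15% higher. Most leaf-abundant IDs were at 10 CPM or below in root, where 9.74% of 1129 were lower and 13.4% higher, against 22.4 and 12% of 1572 root-abundant IDs. Over all 1273 leaf-abundant IDs, 173 were higher (13.6%, against 10.7% of all tested IDs) and 160 lower (12.6%, against 12.6%). At least 2-fold differences among them were 120 higher and 66 lower, beside 1015 higher and 1314 lower of all tested IDs. Leaf-abundant IDs held 0.619 to 0.664% of gene counts in Jack roots and 0.675 to 0.713% in GmNFYA roots. In roots with NaCl, where the list was chosen, the order was reversed, with 0.585 to 0.634% in Jack and 0.447 to 0.462% in GmNFYA. There 306 of these IDs were called lower in GmNFYA and 31 higher, while 16.9% of all tested IDs were called in either direction. Of the root-abundant IDs, 396 were lower and 202 higher there.

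**Figure D4:**
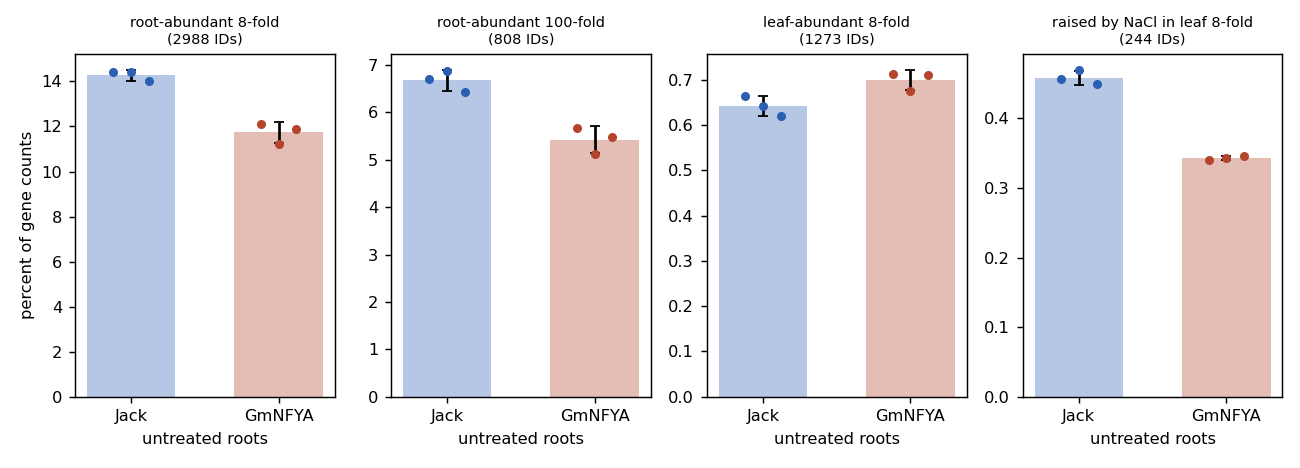
Percent of gene counts held by 4 lists in untreated Jack and GmNFYA roots (points are libraries, bars group means, error bars SD, n = 3 each, vertical axes from 0 with a scale of their own). The lists were chosen on libraries other than these 6, and root-abundant IDs held 14.3% in Jack and 11.7% in GmNFYA.

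IDs that changed in leaf between 0 h and 6 h with NaCl were also looked at in these roots without salt. In leaf, 244 of the IDs tested in root had risen at least 8-fold with NaCl in both genotypes. In untreated roots these IDs held 0.457, 0.469 and 0.449% of gene counts in Jack and 0.34, 0.343 and 0.346% in GmNFYA. The 3 GmNFYA libraries were below the 3 Jack libraries and close together. Of the 244 IDs, 57 were lower in GmNFYA (23.4%, against 12.6% of all tested IDs) and 36 higher (14.8%, against 10.7%), while the list median was 0.042 on the log2 scale, on the other side of 0. The sum and the median thus differed in sign. Without the 10 most abundant members the sum, in scaled CPM and not as a share, was 1767 CPM in Jack and 1504 CPM in GmNFYA. With a 2-fold limit the list had 1384 IDs, of which 271 were lower (19.6%) and 228 higher (16.5%), so that both shares were above those of all tested IDs. Only 14 IDs had fallen at least 8-fold in leaf, and 4 of them were lower and 1 higher here.

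Some IDs had counts in 1 genotype only. With 10 or more counts in each of the 3 libraries of one genotype and 0 counts in all 3 of the other, 8 IDs were found in GmNFYA only and 18 in Jack only. Their mean levels were low, from 0.597 to 8.98 CPM for those in GmNFYA and from 0.743 to 25.1 CPM for those in Jack. The count was 48 with a minimum of 5 counts and 17 with a minimum of 20.

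Values are given for 4 of these, chosen as known from earlier results of the series. Glyma.18G245400 was at 26.1, 23.9 and 25.2 CPM in Jack and had 0 counts in GmNFYA, at least 559-fold lower against 3 counts over the group. Glyma.03G091700 was at 12.5, 12.5 and 11.5 CPM in Jack and at 0 counts in GmNFYA, at least 271-fold lower. No read was counted for either in any GmNFYA root library, which at this depth allows up to 3 counts over the group. Glyma.13G042200 was at 7.06, 8.43 and 11.5 CPM in GmNFYA and at 0 counts in Jack, at least 175-fold higher. Glyma.02G226700 was at 7.1, 7.66 and 6.91 CPM in GmNFYA and at 0 counts in Jack, at least 141-fold higher. Such bounds cover counting error only.

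These absences were in part the same in libraries that the untreated roots do not share. Of the 8 IDs found in GmNFYA only, 6 were also at 0 counts in Jack roots with NaCl, and of the 18 found in Jack only, 12 were at 0 counts in GmNFYA roots with NaCl. The others had counts with NaCl, and the highest of them reached 13.8 CPM in Jack and 12.1 CPM in GmNFYA with NaCl. In untreated leaf, 6 of the 8 and 7 of the 18 had 10 or more counts in each library of their own genotype. Of these, 4 and 5 were at 0 counts in the other genotype. Among the IDs named above, Glyma.18G245400 was at 2.53 to 3.13 CPM in untreated Jack leaves and at 0 in untreated GmNFYA leaves. Glyma.03G091700 was at 2.76 to 5.91 CPM and 0 there. Glyma.02G226700 was at 7.63 to 9.19 CPM in GmNFYA leaves and at 0 in Jack leaves. Glyma.13G042200 was at 11.9 to 13.3 CPM in GmNFYA leaves and had counts in 1 untreated Jack leaf library, at 0.269 CPM.

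Strong differences were uneven along the chromosomes, whose number is part of a soybean gene ID. The share of tested IDs called ranged from 20.9% on chromosomes 12 and 14 to 26% on chromosomes 13 and 18. For called differences of at least 4-fold it ranged from 1.13% on chromosome 4 to 3.54% on chromosome 18, beside 1.99% overall. Tested IDs were put in number order and divided into 714 windows of 50. The median window held 1 ID with an at least 4-fold difference, 282 held none, and 9 held 6 or more. Positions in bases are not given, since the tables hold no coordinates.

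The windows with the most such IDs were of different kinds. Between 09G159700 and 09G1671002, 10 of 50 IDs differed at least 4-fold, all lower in GmNFYA. Of these, 3 were also called lower with NaCl, and only 1 was tested in leaf. Between 18G077800 and 18G086900, 6 IDs were lower and 3 higher, 7 of these 9 also differed the same way with NaCl, and 5 of the 7 tested in leaf did so in untreated leaf. Between 03G064200 and 03G074600, 7 were lower and 1 higher, with 7 of 8 the same with NaCl and 6 of 7 the same in leaf. Between 13G245600 and 13G252400 all 7 were lower, 4 of them also with NaCl, and the 1 tested in leaf was the same there. The other 5 windows held 6 such IDs each. Between 03G051100 and 03G063900, 5 were lower and 1 higher, and 1 was the same with NaCl. Between 11G058700 and 11G064500, 4 were lower and 2 higher, with 0 the same with NaCl and 0 of 5 the same in leaf. Between 13G266500 and 13G272200 all 6 were lower, 5 of them also with NaCl, and 2 of 3 also in leaf. Between 18G032400 and 18G039100 all 6 were lower, with 0 the same with NaCl and 0 tested in leaf. The interaction was called for 0 of these 6, so a change with NaCl was not shown for them. Between 18G250800 and 18G259500, 4 were lower and 2 higher, with 2 the same with NaCl and 2 of 6 the same in leaf. In the stretches that begin at 18G077800, 03G064200, 13G245600 and 13G266500 most strong differences were shared with NaCl and, where tested there, with untreated leaf. In the order in which the windows are given here, the interaction was called for 3, 0, 1, 6, 5, 5, 4, 0 and 1 of these IDs.

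Across all calls, the genotype difference of untreated roots was compared with that in libraries of the other groups. With NaCl, 6168 IDs were called in root (16.9% of those tested). The shared calls of the same direction, 2223 IDs, made up 26.2% of the untreated calls and 36% of those with NaCl, and 286 IDs were called in opposite directions. In leaf, 1435 of 32699 IDs tested in both tissues were called without NaCl (4.39%) and 3004 with NaCl (9.19%). The 413 IDs that were called the same way in untreated root and leaf made up 5.51% of the root calls tested in leaf and 28.8% of the leaf calls, and 163 were opposite. Called in the same direction in all 4 genotype comparisons were 153 IDs, 63 higher and 90 lower.

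Shared calls depended on the size of the difference. Of IDs called with less than a 1.41-fold difference in untreated roots, 25.9% were called the same way with NaCl and 2.87% in untreated leaf. From 4-fold to 8-fold the shares were 26.1 and 11.1%, and from 8-fold to 32-fold 34.2 and 17.7%. Above 32-fold, 49 of 78 IDs (62.8%) were called the same way in roots with NaCl, and 24 of the 43 tested in leaf (55.8%) in untreated leaf, with none opposite in leaf. Of these 43 IDs, 22 were the same in all 4 comparisons. The share in leaf rose with each size class, and that in roots with NaCl stayed between 25.1 and 26.1% up to 8-fold.

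**Figure D5:**
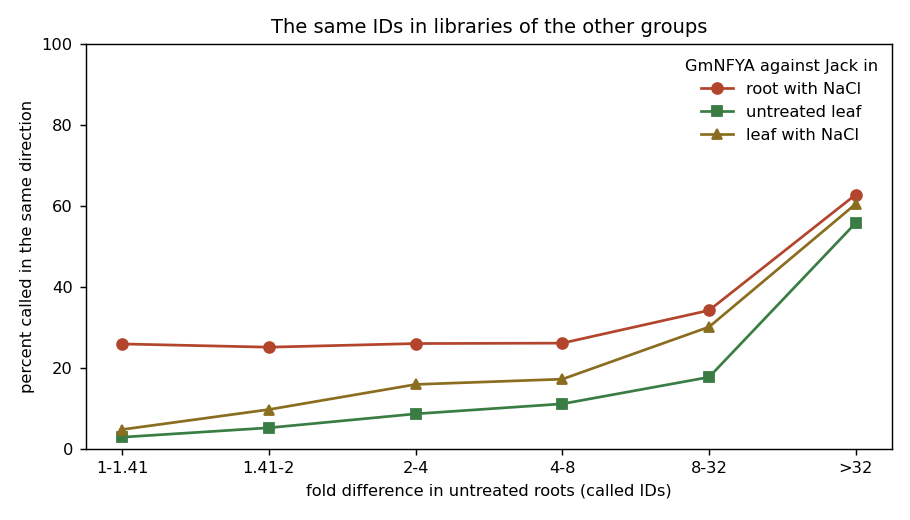
Percent of IDs called in untreated roots that were called in the same direction in 3 other genotype comparisons (vertical axis), by fold difference in untreated roots (horizontal axis); leaf shares are of the IDs tested in leaf. Above 32-fold the 3 shares were 62.8% in root with NaCl, 55.8% in untreated leaf and 60.5% in leaf with NaCl.

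The difference between untreated and NaCl-treated roots was tested as an interaction, which passed for 3018 of all tested IDs (8.29%). These roots also differ in time, 0 h and 6 h, so the interaction cannot be assigned to NaCl alone. Among the 8490 IDs called without NaCl it passed for 2117 (24.9%), and in 2061 of these the genotype difference was smaller or of the other sign with NaCl. They comprised 1228 IDs lower and 833 higher in untreated GmNFYA roots. Both tests use the same untreated libraries, so IDs called there tend to have the larger difference there, and the direction of this count is not a result. For the same reason the medians were smaller in the group not used for the choice, whichever group that was. IDs called without NaCl had a median size of 0.636 on the log2 scale and a median of 0.222 in the same direction with NaCl. IDs called with NaCl had a median size of 0.566 and a median of 0.255 in the same direction without it. For 02G303800 the fold difference was smaller with NaCl (edgeR interaction log2 -1.62 ± 0.305, adjusted p = 0.0048). Means under NaCl were 6.04 ± 2.25 CPM for Jack and 531 ± 24.1 CPM for GmNFYA. Without NaCl they were 1.36 ± 0.376 and 365 ± 28.5 CPM, so both means were higher with NaCl. The low Jack level without NaCl rested on 17, 28 and 35 counts.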

How the data were processed

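Read counts per gene ID of 24 soybean libraries were deposited by the authors as 2 tables, 1 per tissue, in whole numbers and not normalized. The submitters' processing notes list HISAT2, featureCounts and DESeq2 with no role or version; build, annotation and strand setting: not given in the sources used here. The last 5 rows hold unassigned reads and were dropped, which left 57105 IDs, of which 0 matched the RefSeq table of assembly Glycine_max_v4.0; planned lists by description were therefore not filled. Near-identical and overlapping genes are uncertain.

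Counts were analysed with edgeR 4.0.16 in R 4.3.3 (filterByExpr, minimum count 10, 36390 IDs; TMM; robust quasi-likelihood F test over 12 root libraries in 4 groups, Benjamini-Hochberg adjusted p under 0.05), with the same design in leaf. IDs were matched between tissues by number. The SE is the log2 fold change over the square root of F. Tissue ratios used a floor of 0.05 CPM and at least 1 CPM in the higher tissue. The fit was tested on simulated data in which few IDs were changed, with rises and falls in equal number. The calls here are many and uneven, so the simulation does not bear on their number or balance. Named IDs were the 2 largest rises and 2 largest falls in CPM (called, at least 2-fold, no overlap) and 4 IDs known from the account of the series. The comparison, lists and named IDs were chosen with earlier results of these data known. Libraries of a group differed by more than sampling noise (chi-square per degree of freedom of 4.92 to 9.47). Alternatives were DESeq2 1.42.0, RLE and upper-quartile scaling, 2 other filters, 6 libraries only, a replicate block, each library left out and glmTreat against 1.5-fold.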

Additional observations from a re-analysis of the deposited data

Results flagged for a closer look

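The fold difference of Glyma.02G303800 between the genotypes in root differed without and with NaCl, by -1.62 ± 0.305 on the log2 scale (interaction, adjusted p = 0.0048, edgeR quasi-likelihood test). Its means without and with NaCl were 1.36 and 6.04 CPM in Jack and 365 and 531 CPM in GmNFYA. Libraries with and without NaCl also differed in time, which cannot be told apart from NaCl. The ID was 1 of the 2117 called without NaCl whose genotype difference differed with NaCl by the same test.

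Reads outside the gene counts also differed between the genotypes. Reads with a low alignment quality made up 6.27% of reads in GmNFYA and 5.61% in Jack roots, and reads that fell on more than 1 gene made up 0.225 and 0.206%, in both cases with every GmNFYA library above every Jack library. Their part in the genotype differences was not tested.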

How the results depend on the processing

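All 8 named IDs kept their direction and an adjusted p under 0.05 in each of the 14 alternatives. The 8490 calls (3910 higher, 4580 lower) numbered 8880 with DESeq2 and 1505 (511 and 994) when tested against a 1.5-fold change with glmTreat. With glmTreat for both tests, 436 of the 1505 called IDs had an interaction, against 2117 of the 8490 in the main fit. Leaving out 1 library gave 5648 to 8622 calls, 2414 to 3948 higher and 3192 to 4674 lower, 1496 to 2063 called IDs with an interaction, and 26 to 34 IDs detected in 1 genotype only. The last count was 26 with all libraries, 48 at a minimum of 5 counts and 17 at 20. The ratio of the highest to the lowest chromosome share was 1.24 for all calls and 3.12 for calls of at least 4-fold. The replicate numbers did not pair the libraries (correlations of deviations of 0.0374, -0.00762 and -0.157 for numbers 1, 2 and 3), and with a replicate block 7719 IDs were called. The summed CPM of root-abundant IDs was 1.3 times as high in Jack as in GmNFYA, and 1.31 times at a 100-fold limit. It was 1.28 and 1.26 times as high without the 1 and 10 highest members. These ratios are of scaled CPM. The mean shares of gene counts were 14.3% in Jack and 11.7% in GmNFYA, and 6.67 and 5.42% at the 100-fold limit. The interaction alternatives and those on root-abundant IDs, on levels and on 2-fold calls were chosen after seeing the data. At these depths IDs up to 1 CPM had a median SE of 0.495, which limits calls of 2-fold differences there.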
